A study of Capra hircus with 72 samples.

Results

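The comparison covers the ventral respiratory column (VRC) of goats after moderate chronic hypercapnia, set against the VRC after mild chronic hypercapnia. Its libraries were chosen by their labels alone, as the VRC libraries of these conditions, and number 12 of the 72 in the series, with 6 in each group. Moderate hypercapnia (CH) was 7 days of air with 6% CO2 followed by 7 days with 8% CO2, and mild hypercapnia was 14 days with 6% CO2. The groups therefore shared the first week at 6% and differed in the CO2 level of the second. All goats (Capra hircus) were female, and their age and breed are not stated. The series also holds VRC libraries of goats kept in room air and, under the same 3 conditions, libraries of the retrotrapezoid nucleus (RTN), the solitary tract nucleus (NTS) and, from the forebrain, medial prefrontal cortex (mPFC). Total RNA was extracted on columns and made into libraries with a low-input kit. The labels name no strain, allele or drug, and the series describes 6 animals per condition without saying which replicate number is which animal, so p-values measure the spread between these libraries.

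The ventral respiratory column is a strip of the medulla whose excitatory, GABA and glycine neurons generate and shape the breathing rhythm and drive the motor neurons of respiration. Carbon dioxide dissolves to form carbonic acid, and the resulting fall in pH is sensed by chemoreceptor neurons and glia of the brainstem, which raise ventilation through this column. When CO2 stays high for days, the kidneys retain bicarbonate and blood pH partly recovers, so chronic exposure differs from an acute challenge. Microglia are the resident immune cells of such tissue, while T cells and border macrophages sit mostly in vessels and meninges.

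The labelled region was checked against genes that mark it, in CPM (read counts relative to library size) scaled over the whole series. HOXA4, a gene of the caudal hindbrain, averaged 37.0 ± 10.7 CPM in moderate VRC libraries and 28.7 ± 8.14 CPM in mild VRC libraries (SD, n = 6 each), and was listed at 0 in every moderate and mild mPFC library. SLC6A5, the glycine transporter of inhibitory neurons, averaged 142 ± 29.5 and 110 ± 26.9 CPM in the same groups, above its NTS means of 44.8 ± 14.9 and 40 ± 20.2 CPM. In RTN its means were 91.7 ± 50.1 and 77 ± 35.3 CPM, and the ranges of RTN and VRC overlapped. CHAT, the enzyme that makes acetylcholine, averaged 6.79 ± 5.17 and 4.04 ± 4.93 CPM there, below its RTN means of 53.8 ± 29.7 and 37.0 ± 17.4 CPM. SLC17A7, a glutamate transporter of cortical and cerebellar neurons, averaged 81.3 ± 55.5 CPM in moderate VRC and 49.8 ± 32.4 CPM in mild VRC, against 6.71 ± 2.17 and 8.82 ± 3.31 CPM in RTN. Because these are bulk samples, fewer cells of a type and less RNA per cell cannot be told apart.

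Total counts were 14.08 to 21.08 M in moderate libraries, 14.7 to 20.63 M in mild libraries and 15.23 to 22.56 M in room air libraries. Mitochondrially encoded genes took 0.378% to 0.665% of counts in moderate libraries and 0.354% to 0.955% in mild libraries. No library was a near copy of another in its group, the smallest chi-square per degree of freedom between such libraries being 16.2. Some libraries stood apart from their groups. Each library was set against the moderate minus mild difference of the other 11, by the correlation across genes of its deviation from the midpoint of both groups. The r was -0.02 to 0.31 for moderate replicates 1 to 5 but -0.19 for moderate replicate 6, and -0.24 to 0.02 for mild replicates 1 to 5 but 0.15 for mild replicate 6. Replicate 6 of each condition lay nearer to the profile of the opposite group. An exchange of labels, a difference in dissection and a difference between animals cannot be told apart here, and both libraries were kept in their labelled groups. Mild replicate 3 held the highest leukocyte signal, with a mean log2 CPM of 3.37 over T cell and leukocyte markers, against -0.08 to 2.25 in the other mild libraries.

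No gene passed in the comparison of moderate with mild hypercapnia. With edgeR's quasi-likelihood test on the 18 VRC libraries, 0 of 15302 genes had a Benjamini-Hochberg adjusted p under 0.05 (0%), and the lowest was 0.0760, for LY96. At an unadjusted p under 0.05 there were 2365 genes (15.5% of those tested), 1165 higher in moderate (7.61%) and 1200 lower (7.84%). Counts of list members at that p, given below, are to be read beside these shares. The lists were chosen with earlier results of these data known, so their counts and medians are descriptions and carry no test. Members of a list share the same libraries and are not independent observations. All 6 moderate libraries lay above all 6 mild ones in 43 genes (0.281%) and below them in 62 (0.405%). DESeq2 called 280 genes, 131 higher (0.829%) and 149 lower (0.943%), and limma with quality weights called 34, 20 higher (0.131%) and 14 lower (0.0915%), 32 of them shared with DESeq2. Leaving out moderate replicate 6 gave 247 calls with edgeR, 168 higher (1.09%) and 79 lower (0.513%), of which 146 were also called by DESeq2 on all libraries. Leaving out moderate replicate 4 gave 1 call, the gene ENSCHIG00000000053, and leaving out any other moderate or mild library gave 0. The room air libraries served both other comparisons, in which edgeR again called 0 genes (0%). Those held 949 genes at an unadjusted p under 0.05 for mild against room air (6.2%) and 864 for moderate against room air (5.65%). No gene named below passed the test on all libraries. Adjusted p-values are those of edgeR unless another tool is named. Of the 121 genes examined one by one, 46 had an adjusted p under 0.05 without moderate replicate 6 and 0 did when any other library was left out; without mild replicate 3 the lowest was 0.219. Moderate replicate 6 was singled out because it lies against the difference between the groups, so the values given below without it depend on that choice and are descriptions, not tests.

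The genes of smallest p that stood lower after moderate hypercapnia included several immune genes. LY96, the co-receptor through which TLR4 recognises bacterial lipid (chromosome 14), had a lowest, median and highest level of 0.574, 0.797 and 1.03 CPM in moderate libraries and 1.72, 2.62 and 4.87 CPM in mild libraries. The 6 moderate libraries all lay below the 6 mild ones. Its log2 fold change was -1.77 ± 0.29 (SE, adjusted p = 0.0760), with adjusted p = 6.12e-05 by DESeq2, 0.0387 by limma and 0.0142 without moderate replicate 6. MYO1G, a myosin of blood cells (chromosome 4), stood at 0.496, 0.786 and 1.05 CPM in moderate libraries and 1.73, 2.19 and 6.28 CPM in mild libraries, again without overlap, with a log2 fold change of -1.85 ± 0.35 (adjusted p = 0.0827). PRDM1, a repressor that drives late lymphocyte differentiation (chromosome 9), stood at 2.47, 2.98 and 3.62 CPM in moderate libraries and 4.66, 5.38 and 7.49 CPM in mild ones. These groups did not overlap either, and the log2 fold change was -0.87 ± 0.17 (adjusted p = 0.0883). FYB1, an adaptor of T cell receptor signalling (chromosome 20), stood at 3.22, 3.68 and 5.33 CPM in moderate libraries and 5.60, 8.37 and 23.9 CPM in mild libraries. Its groups were apart, and its log2 fold change was -1.46 ± 0.31 with all libraries and -1.10 without mild replicate 3. Without moderate replicate 6 the adjusted p was 0.0226 for MYO1G, 0.0209 for PRDM1 and 0.0308 for FYB1, and without mild replicate 3 it was 0.219 for each of them.

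Of the other genes of smallest p on the lower side, KIF13B, a kinesin motor (chromosome 8), stood at 10.3, 12.7 and 17.1 CPM in moderate libraries and 19.6, 24.0 and 28.9 CPM in mild libraries, with no overlap. Its log2 fold change was -0.88 ± 0.15 (adjusted p = 0.0827). LUC7L3, a splicing factor of the U1 particle (chromosome 19), stood at 93.9, 120 and 134 CPM in moderate libraries and 156, 170 and 232 CPM in mild libraries, with a log2 fold change of -0.64 ± 0.12 (adjusted p = 0.0827). CSPP1, a centrosome and cilium protein (chromosome 14), stood at 19.3, 20.4 and 23.3 CPM in moderate libraries and 26.1, 31.9 and 37.6 CPM in mild libraries, with a log2 fold change of -0.65 ± 0.12 (adjusted p = 0.0827). Neither gene's groups overlapped. KDELR3, a receptor that returns proteins to the endoplasmic reticulum, stood at 2.34, 3.06 and 3.32 CPM in moderate libraries and 3.65, 5.62 and 6.39 CPM in mild ones, also apart. NKTR, a cyclophilin with an arginine and serine rich tail, averaged 50.3 ± 7.02 CPM in moderate and 72.2 ± 8.73 CPM in mild libraries, and BFSP1, a filament protein best known from the lens, 8.13 ± 1.47 and 16.9 ± 5.89 CPM in the same order (SD, n = 6 each). For these last 2 genes the groups overlapped slightly. After LUC7L3 and NKTR had been seen, the 8 tested genes with symbols starting SRSF, the SR family of splicing factors, were examined as an added list. Their median log2 fold change was -0.08, with 7 of 8 negative, and 2 of 8 had an unadjusted p under 0.05. SRSF7 stood apart among them, at 109 to 127 CPM in moderate libraries and 133 to 159 CPM in mild libraries, with a log2 fold change of -0.35 ± 0.08 (adjusted p = 0.1). The added list of HNRNP genes, another family of RNA-binding proteins, had a median of -0.01 over 10 members.

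On the higher side, DKK3, a secreted member of the dickkopf family (chromosome 15), stood at 169, 310 and 341 CPM in moderate libraries and 133, 177 and 209 CPM in mild libraries. Moderate replicate 6 was the one moderate library within the mild range. Its log2 fold change was 0.72 ± 0.15 (adjusted p = 0.0947), and 0.83 with adjusted p = 0.00388 when that library was left out. UNC5A, a netrin receptor of axon guidance (chromosome 7), stood at 23.7, 40.1 and 46.7 CPM in moderate libraries and 18.7, 24.4 and 27.8 CPM in mild libraries, and its log2 fold change was 0.68 ± 0.14 (adjusted p = 0.0947). Without moderate replicate 6 its adjusted p was 0.00388, the same as for DKK3. CPT1C, the neuronal form of carnitine palmitoyltransferase (chromosome 18), did not overlap between groups, at 59.3, 71.8 and 78.7 CPM in moderate libraries and 44.1, 48.9 and 52.0 CPM in mild ones. Its log2 fold change was 0.56 ± 0.11 (adjusted p = 0.0947). PDE1B, a phosphodiesterase activated by calcium and calmodulin, did not overlap either, at 52.0, 63.9 and 70.7 CPM in moderate libraries and 31.1, 43.0 and 50.5 CPM in mild libraries (log2 fold change 0.55 ± 0.12). The glycogen phosphorylase gene PYGB, of the brain form, averaged 483 ± 80.5 CPM in moderate and 323 ± 40.6 CPM in mild libraries. SLC26A11, an anion transporter, averaged 1880 ± 354 and 1240 ± 141 CPM in these groups, and SVOP, a synaptic vesicle protein, 112 ± 23.2 and 73.8 ± 9.11 CPM (SD, n = 6 each). TOM1L2, an endosomal adaptor, TRAPPC9, a subunit of a vesicle tethering complex, and the zinc finger gene FLYWCH1 were also among the genes of smallest p, with log2 fold changes of 0.55, 0.51 and 0.56.

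**Figure D1:**
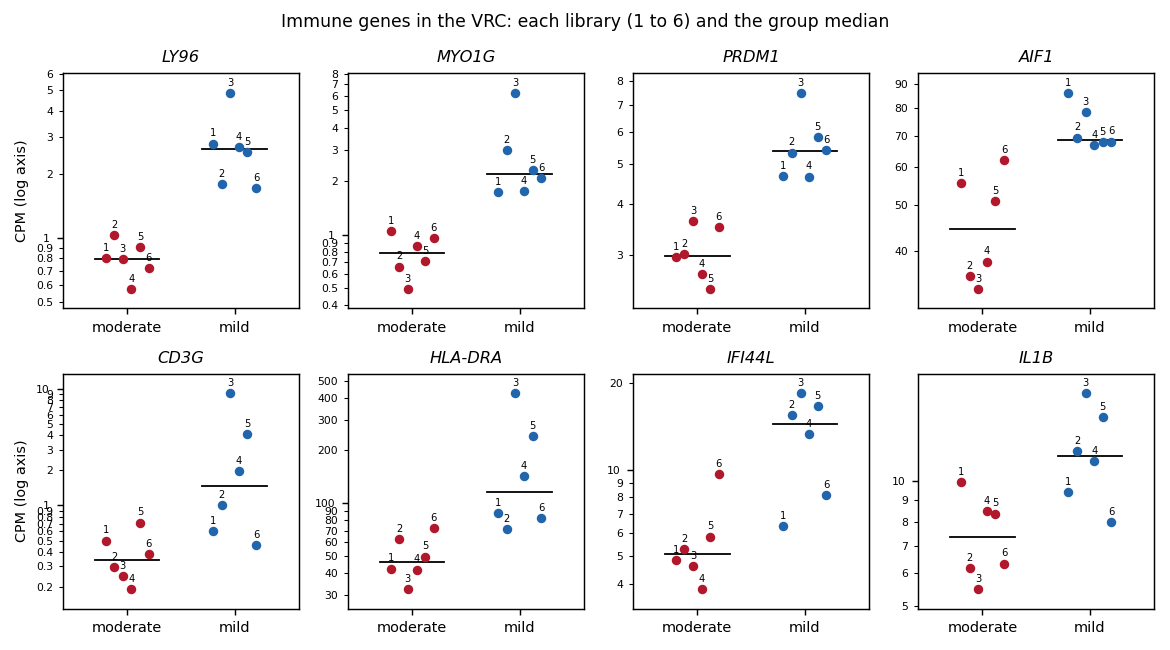
CPM on a log axis (y) of 8 immune genes in the 6 moderate (left, red) and 6 mild (right, blue) VRC libraries, with replicate numbers and a line at each group's median. LY96, MYO1G, PRDM1 and AIF1 do not overlap between the groups, and mild replicate 3 is the highest mild library in 7 of the 8 panels.

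Immune marker lists had negative median log2 fold changes, with scores that overlapped between the groups in part of the libraries. Antigen presentation, the machinery that displays peptides to T cells, had 13 of 16 listed genes tested, all 13 with a negative log2 fold change and 12 at an unadjusted p under 0.05, beside 7.84% of all genes tested on that side. Its median log2 fold change was -1.23, against 0.00 over all genes. The mean log2 CPM of its members was 3.14 to 3.57 in moderate libraries and 3.32 to 5.68 in mild libraries. Mild replicates 1 and 6, at 3.51 and 3.32, lay within the moderate range. HLA-DRA, the alpha chain of a class II molecule (chromosome 23), stood at 32.5, 46.2 and 72.1 CPM in moderate libraries and 71.6, 115 and 424 CPM in mild libraries. Only the highest moderate library and the lowest mild library crossed. The fitted log2 fold change was -1.80 ± 0.40 (adjusted p = 0.1), and -1.33 without mild replicate 3. HLA-DMA, which loads peptides on class II, averaged 9.49 ± 1.85 CPM in moderate and 21.3 ± 12 CPM in mild libraries. CIITA, the master activator of class II genes, stood at 1.49 to 2.06 CPM in moderate libraries and 1.62 to 16.1 CPM in mild ones, and PSMB8, an immunoproteasome subunit, at 15.1 to 25.1 and 20.3 to 156 CPM in the same order. Their log2 fold changes were -1.63 and -1.35, and -0.98 and -0.60 without mild replicate 3. Without mild replicate 3 the list's median was -0.66, with 13 of 13 negative and 7 at an unadjusted p under 0.05, beside 6.33% of all genes on the lower side in that fit. The counting of reads shared among histocompatibility genes is not stated, so values of single members are uncertain.

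T cell and leukocyte markers had 11 of 21 listed genes tested, 11 of 11 with a negative log2 fold change, 6 at an unadjusted p under 0.05 and a median of -1.62. Of the other 10, 4 have no symbol in the table and the rest did not pass the low-count filter. CD3G, a chain of the T cell receptor complex, stood at 0.191, 0.339 and 0.712 CPM in moderate libraries and 0.456, 1.48 and 9.23 CPM in mild libraries. The groups overlapped, although all 6 moderate libraries lay under the mild median. The fitted log2 fold change was -2.88 ± 0.67 (adjusted p = 0.1) with all libraries and -2.06 without mild replicate 3. CD4, the co-receptor of helper T cells, averaged 1.02 ± 0.404 CPM in moderate and 4.69 ± 6.43 CPM in mild libraries. NKG7, a granule protein of killer cells, averaged 1.26 ± 0.294 and 3.89 ± 4.14 CPM, and CD2, an adhesion molecule of T cells, 0.537 ± 0.271 and 3.10 ± 4.41 CPM (SD, n = 6 each). These levels rest on few counts, and the large mild SDs come with 17.6 CPM of CD4, 11.7 CPM of NKG7 and 11.9 CPM of CD2 in the highest mild library. Without mild replicate 3 the log2 fold change was -1.09 in place of -2.23 for CD4, -0.89 in place of -1.62 for NKG7 and -1.33 in place of -2.52 for CD2. The list's summed level was 26.4 to 36 CPM over moderate libraries and 28.3 to 140 CPM over mild libraries. Leaving out mild replicate 3 gave a median of -0.89 with 11 of 11 negative and 3 at an unadjusted p under 0.05.

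Microglia markers had 15 of 17 listed genes tested. All 15 had a negative log2 fold change, 11 had an unadjusted p under 0.05, and the median was -0.54 (without mild replicate 3 the median was -0.49 and 6 reached that p; without moderate replicate 6 the median was -0.66). AIF1, the calcium-binding protein IBA1 used to stain microglia (chromosome 23), stood at 33.3, 44.4 and 62.2 CPM in moderate libraries and 66.8, 68.6 and 86.1 CPM in mild libraries. All moderate values lay below all mild ones, and the log2 fold change was -0.66 ± 0.20 (adjusted p = 0.156). SALL1, a transcription factor of microglial identity, stood at 23.7, 40.2 and 48.5 CPM in moderate libraries and 47.5, 54.9 and 74.0 CPM in mild libraries. The fitted log2 fold change was -0.56 ± 0.15 (adjusted p = 0.137), and its adjusted p without moderate replicate 6 was 0.0487. TYROBP, the signalling adaptor of microglial receptors, averaged 24.9 ± 5.54 CPM in moderate and 42.4 ± 18.4 CPM in mild libraries, a log2 fold change of -0.77 that was -0.51 without mild replicate 3. CD68, a lysosomal protein of phagocytes, stood at 4.84 to 10.4 CPM in moderate libraries and 7.25 to 15.4 CPM in 5 mild libraries, with 103 CPM in mild replicate 3. The fitted log2 fold change was -1.94 with that library and -0.64 without it. Border macrophage markers, of which 4 of 7 were tested, behaved likewise in their dependence on that library: the median was -1.20 with it and -0.34 without it, and CD163, a haemoglobin scavenger receptor, reached 26.8 CPM there, against at most 0.721 CPM in moderate libraries (log2 fold change -4.02 with it and -1.36 without it).

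Interferon response genes had a median of -0.73 over 23 tested of 28 listed, with 20 negative and 12 at an unadjusted p under 0.05. IFI44L, an interferon-induced gene (chromosome 3), stood at 3.83, 5.07 and 9.66 CPM in moderate libraries and 6.34, 14.4 and 18.5 CPM in mild libraries. Moderate replicate 6 was the highest moderate library, and mild replicates 1 and 6 were the lowest mild ones. The log2 fold change was -1.20 ± 0.30 (adjusted p = 0.126, and 0.0298 without moderate replicate 6). IFIH1, a cytoplasmic sensor of double-stranded RNA, averaged 17.0 ± 5.72 CPM in moderate and 30.8 ± 10.2 CPM in mild libraries, with a log2 fold change of -0.86 ± 0.23. ISG15, a ubiquitin-like modifier, averaged 12 ± 3.81 and 29.0 ± 22.2 CPM, and IRF9, part of the interferon transcription complex, 63.9 ± 15 and 103 ± 44.1 CPM in the same groups (SD, n = 6 each). For ISG15 the log2 fold change was -1.27, and -0.81 without mild replicate 3. Without mild replicate 3 the list's median was -0.56, with 20 of 23 negative and 8 at an unadjusted p under 0.05.

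Cytokines and innate inflammation genes had a median of -0.41 over 16 tested of 25 listed, with 14 negative and 5 at an unadjusted p under 0.05. Without mild replicate 3 the median was -0.25, with 13 negative and 2 at that p. IL1B, the inflammatory cytokine interleukin 1 beta, stood at 5.5, 7.35 and 9.96 CPM in moderate libraries and 7.96, 11.5 and 16.3 CPM in mild libraries. The groups overlapped, and the log2 fold change was -0.66 ± 0.20 (adjusted p = 0.159). IL1A averaged 0.680 ± 0.260 CPM in moderate and 2.22 ± 2.19 CPM in mild libraries, and NFKB2, a subunit of the inflammatory factor NF-kappa B, 11.1 ± 2.36 and 17.4 ± 8.40 CPM. Without mild replicate 3 their log2 fold changes were -1 in place of -1.71 for IL1A and -0.43 in place of -0.66 for NFKB2. The 8 tested complement genes of 14 listed were all negative, with a median of -0.49 that became -0.05, with 6 of 8 negative, without mild replicate 3, and 1 member, C3, at an unadjusted p under 0.05 (370 ± 68.4 CPM in moderate and 507 ± 131 CPM in mild libraries). The purine signalling list had a median of -0.04 over 16 members and showed no common direction, with 6 positive and 4 lower at an unadjusted p under 0.05. These 4 are named for their p and do not stand for the list. ADORA3, an adenosine receptor, stood at 21.9, 27.9 and 45.9 CPM in moderate libraries and 35.0, 56.9 and 72.1 CPM in mild libraries (log2 fold change -0.82 ± 0.22, adjusted p = 0.0395 without moderate replicate 6). The nucleotide receptors P2RY2, P2RY6 and P2RY14 had log2 fold changes of -0.87, -0.90 and -0.55.

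Each of these immune lists had the opposite sign in mild hypercapnia against room air. For T cell and leukocyte markers the median log2 fold change was 1.42 for mild minus room air and -0.07 for moderate minus room air. It was 0.76 and -0.38 for antigen presentation, 0.31 and -0.26 for microglia markers, and 0.41 and -0.37 for interferon response genes, in the same order of comparisons. These comparisons share the room air libraries with each other and the mild or moderate libraries with the comparison described here, so they are not independent. LY96 averaged 1.24 ± 0.340 CPM in room air, 2.74 ± 1.14 CPM in mild and 0.803 ± 0.155 CPM in moderate libraries (SD, n = 6 each). HLA-DRA averaged 75.0 ± 40.6, 175 ± 137 and 50.3 ± 14.6 CPM along the same series. High list scores were held by part of the mild group. For antigen presentation, mild replicates 3 and 5 scored 5.68 and 4.69, above the room air range of 3.15 to 4.38. The other mild libraries, at 3.32 to 4.08, lay within it. For T cell and leukocyte markers, mild replicates 3, 4 and 5 scored 3.37, 1.26 and 2.25, above the room air range of -0.48 to 1.04. The other mild libraries lay within that range.

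**Figure D2:**
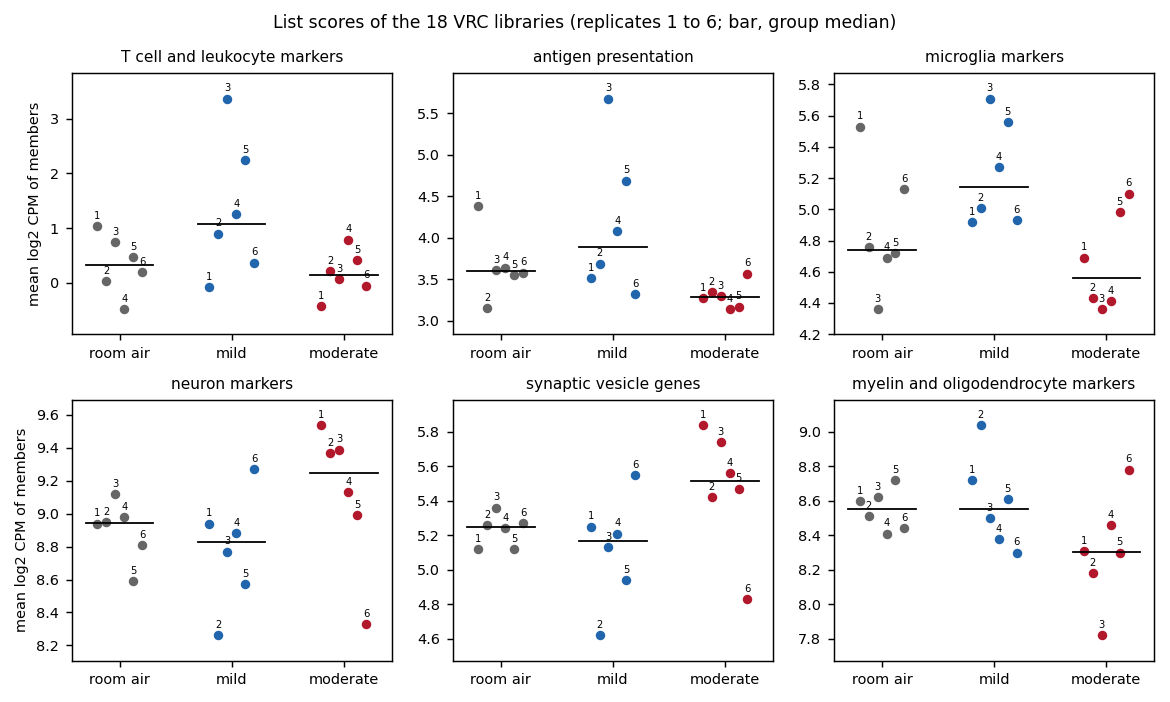
Mean log2 CPM of each list's tested members (y) in the 6 room air, 6 mild and 6 moderate VRC libraries, with replicate numbers and a line at each median. Mild replicate 3 reaches 3.37 for T cell and leukocyte markers and 5.68 for antigen presentation, and moderate replicate 6 has the lowest moderate neuron score, 8.33.

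Neuronal genes stood higher after moderate hypercapnia. All 12 tested neuron markers of 14 listed had a positive log2 fold change, with a median of 0.36, and 4 had an unadjusted p under 0.05, beside 7.61% of all genes tested on that side. Without mild replicate 3 the number was 2, and without moderate replicate 6 it was 8. The median was 0.25 without moderate replicate 3 and 0.47 without moderate replicate 6. SYN1, which tethers synaptic vesicles to the cytoskeleton, stood at 112, 215 and 261 CPM in moderate libraries and 102, 126 and 167 CPM in mild libraries. Moderate replicates 1 to 5 lay at 208 to 261 CPM, above every mild library, and moderate replicate 6 at 112 CPM lay among them. The log2 fold change was 0.64 ± 0.17 (adjusted p = 0.137), and 0.76 with adjusted p = 0.0142 without moderate replicate 6. It was 0.56 without moderate replicate 1, and the highest adjusted p with 1 library left out was 0.287. INA, a neuronal intermediate filament, averaged 892 ± 268 CPM in moderate and 632 ± 181 CPM in mild libraries, and ENO2, neuron-specific enolase, 1110 ± 237 and 813 ± 210 CPM. RBFOX3, the nuclear protein NeuN, averaged 14.1 ± 4.48 and 9.91 ± 3.94 CPM in these groups (SD, n = 6 each). The score of the list was 8.99 to 9.54 in moderate replicates 1 to 5 and 8.33 in moderate replicate 6. It was 8.26 to 9.27 in mild libraries, where replicate 2 was lowest and replicate 6 highest.

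Genes of the synaptic vesicle cycle had a median of 0.38 over 19 tested of 20 listed, with 16 positive and 7 at an unadjusted p under 0.05. SYP, an abundant vesicle membrane protein, stood at 93.7, 146 and 158 CPM in moderate libraries and 85.2, 94.1 and 114 CPM in mild libraries. The log2 difference was 0.46 ± 0.14 (adjusted p = 0.156), with adjusted p = 0.0416 without moderate replicate 6. It was 0.40 without moderate replicate 5, and the highest adjusted p with 1 library left out was 0.316. CPLX2, a complexin that clamps vesicle fusion, averaged 26.7 ± 12.3 CPM in moderate and 14.2 ± 5.26 CPM in mild libraries. VAMP1, a vesicle fusion protein prominent in brainstem and spinal cord, averaged 97.9 ± 32.0 and 61.2 ± 17.9 CPM. Plasticity genes included CAMK2B, a calcium-dependent kinase of synapses, with 276 ± 64.9 CPM in moderate and 198 ± 34.7 CPM in mild libraries. SCG2, a granin of dense-core vesicles, averaged 1100 ± 312 and 775 ± 143 CPM, and NRGN, a calmodulin-binding protein of forebrain neurons, 4.65 ± 2.56 and 2.55 ± 0.874 CPM (SD, n = 6 each). For NRGN the log2 fold change was 0.87, and 0.54 without moderate replicate 5. That list of growth factors and plasticity genes had a median of 0.32, with 18 of 22 positive and 7 at an unadjusted p under 0.05 (4 without mild replicate 3).

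**Figure D3:**
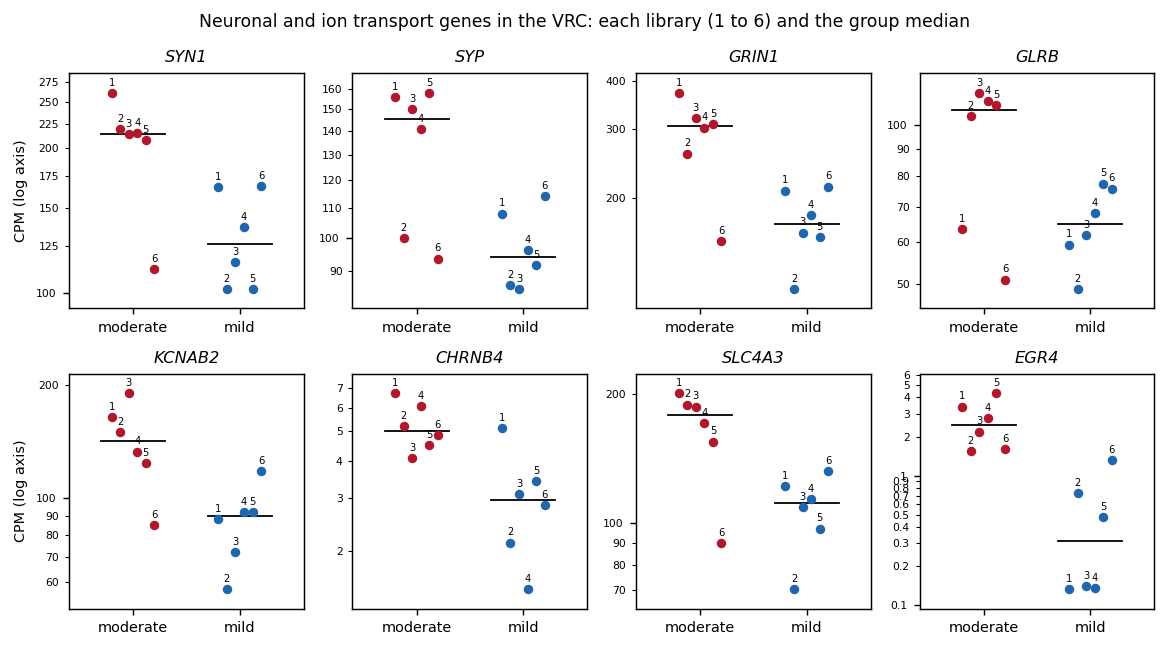
CPM on a log axis (y) of 8 neuronal, ion transport and activity genes in the 6 moderate (left, red) and 6 mild (right, blue) VRC libraries, with replicate numbers and a line at each group's median. Moderate replicate 6 lies within the mild range for SYN1, SYP, GRIN1, GLRB, KCNAB2, CHRNB4 and SLC4A3, while EGR4 does not overlap between the groups.

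Inhibitory transmission, on which the VRC relies to alternate inspiration and expiration, was represented by 22 tested GABA and glycine genes of 25 listed. Of these 21 were positive, 11 at an unadjusted p under 0.05, with a median of 0.37 (without mild replicate 3 the median was 0.32 and 7 reached that p, beside 6.46% of all genes on the higher side). GLRB, the glycine receptor subunit that anchors the receptor at synapses (chromosome 17), stood at 50.9, 106 and 115 CPM in moderate libraries and 48.9, 65 and 77.4 CPM in mild libraries. Moderate replicates 2 to 5 lay above every mild library, and moderate replicates 1 and 6 lay within the mild range. The log2 fold change was 0.50 ± 0.18 (adjusted p = 0.201, and 0.0451 without moderate replicate 6). It was 0.41 without moderate replicate 3, and the highest adjusted p with 1 library left out was 0.402. GAD1, a GABA-synthesising enzyme, averaged 76.8 ± 16.5 and 58.0 ± 8.09 CPM, and SLC6A5 135 ± 28.4 and 105 ± 24.7 CPM, in the scaling of the VRC libraries alone. Per gene length, the mean level of GLRB was 21.2 RPKM (reads relative to gene length and library size) in moderate and 15.1 RPKM in mild libraries.

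Glutamate genes, the excitatory side, had a median of 0.22 over 21 tested of 24 listed, with 18 positive and 4 higher at an unadjusted p under 0.05. Without mild replicate 3 the median was 0.29, close to the 0.32 of GABA and glycine genes in that fit. Those 4 are 19% of members, beside 15.5% of all genes in either direction and 7.61% on the higher side. GRIN1, the obligatory NMDA receptor subunit (chromosome 11), stood at 155, 306 and 372 CPM in moderate libraries and 117, 172 and 214 CPM in mild libraries. Moderate replicates 1 to 5 all lay above the mild range, and moderate replicate 6 did not. The log2 fold change was 0.72 ± 0.18 (adjusted p = 0.121, and 0.0142 without moderate replicate 6). It was 0.63 without mild replicate 2, and the highest adjusted p with 1 library left out was 0.269. Its level per length was 94.5 RPKM in moderate and 57.7 RPKM in mild libraries, far above GRIN2D, a partner subunit, at 0.461 and 0.243 RPKM. GRIN2D stood at 1.20 to 2.58 CPM in moderate libraries and 0.667 to 1.22 CPM in mild libraries, with a log2 fold change of 0.93 ± 0.28. GRM4, a presynaptic metabotropic receptor, averaged 32.2 ± 9.27 and 22.3 ± 5.52 CPM, and SLC17A6, the vesicular glutamate transporter of brainstem neurons, 87.5 ± 21.9 and 66.7 ± 11.9 CPM in moderate and mild libraries.

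Ion channels set neuronal excitability, and 23 of 26 tested potassium channel genes had a positive log2 fold change, with a median of 0.39, 9 higher and 1 lower at an unadjusted p under 0.05. KCNAB2, a cytoplasmic subunit of voltage-gated channels (chromosome 16), stood at 84.8, 142 and 190 CPM in moderate libraries and 57.5, 89.9 and 118 CPM in mild libraries. The log2 difference was 0.70 ± 0.18 (adjusted p = 0.124, and 0.0245 without moderate replicate 6). It was 0.59 without moderate replicate 3, and the highest adjusted p with 1 library left out was 0.29. KCNT1, a channel opened by sodium, averaged 50.5 ± 8.48 CPM in moderate and 34 ± 12.4 CPM in mild libraries, and KCNMA1, a channel opened by calcium and voltage, 16.4 ± 5.58 and 11.2 ± 2.45 CPM (SD, n = 6 each). The log2 fold change of KCNMA1 was 0.54, and 0.33 without moderate replicate 3. KCNH7, of the ether-a-go-go family, ran the other way, at 1.67 to 2.85 CPM in moderate libraries and 2.64 to 4.50 CPM in mild libraries (log2 fold change -0.65 ± 0.23). Sodium, calcium and pacemaker channels had a median of 0.15, with 22 of 26 positive and 3 higher at an unadjusted p under 0.05. That is 11.5% of members, beside 15.5% of all genes in either direction and 7.61% on the higher side, and is not taken as a result about the list. The median was 0.04 without moderate replicate 5 and 0.25 without mild replicate 5. Named for their p from this list were CACNA2D2, an auxiliary calcium channel subunit (log2 fold change 0.76), and the sodium channel gene SCN1A (0.46, and 0.27 without moderate replicate 3).

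Peptides and receptors of respiratory neurons had a median of 0.38 over 27 tested of 33 listed, with 20 positive and 4 at an unadjusted p under 0.05. That is 14.8% of members, all on the higher side, beside 15.5% of all genes in either direction and 7.61% on the higher side. The count is not taken as a result about the list. The median was 0.16 without moderate replicate 5, and 9 members reached that p without moderate replicate 6. ADCYAP1R1, the receptor of PACAP, a peptide that stimulates breathing, stood at 13.7, 34.4 and 41.1 CPM in moderate libraries and 12.5, 18.5 and 23.4 CPM in mild libraries (log2 fold change 0.77 ± 0.25, adjusted p = 0.175). The opioid system was represented by OPRM1, the mu receptor through which opioids depress breathing, at 3.74 ± 1.36 CPM in moderate and 2.44 ± 0.777 CPM in mild libraries. The opioid precursors PENK and PDYN averaged 763 ± 281 and 524 ± 229 CPM, and 6.47 ± 4.23 and 3.71 ± 1.79 CPM, each with the moderate group first. All 3 had a log2 fold change within 0.54 to 0.80, and their groups overlapped widely. That of PDYN was 0.49 without moderate replicate 5.

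Cholinergic and motor neuron markers were all positive, 10 of 10 tested of 14 listed, with a median of 0.49 and 2 at an unadjusted p under 0.05. The median was 0.25 without moderate replicate 4. It was 1.21, with 7 at an unadjusted p under 0.05, without mild replicate 3, whose score for this list, 4.76, was the highest of the mild libraries. CHRNB4, a nicotinic receptor subunit, stood at 4.07, 5.03 and 6.71 CPM in moderate libraries and 1.49, 2.97 and 5.14 CPM in mild libraries, with mild replicate 1 alone reaching into the moderate range (log2 fold change 0.79 ± 0.23, adjusted p = 0.149). ACHE, the enzyme that breaks down acetylcholine, averaged 481 ± 138 and 327 ± 64.6 CPM, and its adjusted p without moderate replicate 6 was 0.0298. Among monoamine genes the median was 0.34 over 21, with 5 higher and 2 lower at an unadjusted p under 0.05. The median was 0.20 without moderate replicate 4 or 5, and 2 were higher at that p without mild replicate 3. The serotonin receptors HTR5A and HTR2C averaged 12.1 ± 3.76 and 7.70 ± 2.2 CPM, and 21.7 ± 7.33 and 14.5 ± 3.99 CPM, in moderate and mild libraries. The 2 lower genes mark serotonin neurons themselves, which lie at the midline and project to the VRC. TPH2, the serotonin-synthesising enzyme, stood at 1.44, 4.59 and 8.58 CPM in moderate libraries and 2.74, 10.6 and 26.4 CPM in mild libraries, with a log2 fold change of -1.54 ± 0.57 (adjusted p = 0.217). SLC6A4, the serotonin transporter, stood at 0.190 to 3.07 and 0.8 to 10.8 CPM in the same groups, with a log2 fold change of -1.99 ± 0.79 (adjusted p = 0.242). Mild replicates 4, 5 and 6 carried the high values of both genes.

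Proton and CO2 sensors differed little as a list, with a median of 0.18 over 16 tested of 20 listed (0.10 without mild replicate 1 or without moderate replicate 6) and 1 gene at an unadjusted p under 0.05 in each direction. GPR65, a proton receptor of leukocytes, was at most 0.601 CPM in moderate libraries and at most 4.97 CPM in mild libraries, and its log2 fold change was -2.21 with all libraries and -0.75 without mild replicate 3. Acid-base transporters and carbonic anhydrases had a median of 0.19 over 27 tested of 31 listed, with 6 higher and 2 lower at an unadjusted p under 0.05. Its median was 0.09 without moderate replicate 1. SLC4A3, which exchanges chloride for bicarbonate and so extrudes base (chromosome 2), stood at 89.9, 179 and 201 CPM in moderate libraries and 70.2, 112 and 132 CPM in mild libraries. Moderate replicates 1 to 5 lay above every mild library (log2 fold change 0.62 ± 0.16, adjusted p = 0.137, and adjusted p = 0.0142 without moderate replicate 6). The log2 fold change was 0.52 without mild replicate 2, and the highest adjusted p with 1 library left out was 0.293. SLC4A10, a sodium-coupled bicarbonate transporter of neurons, averaged 31.9 ± 14.1 and 18.9 ± 6.07 CPM, and CA8, a carbonic anhydrase relative without catalytic activity, 27.5 ± 9.73 and 16.7 ± 4.77 CPM. SLC4A7, a sodium bicarbonate cotransporter, lay on the lower side, with 17.5 ± 3.75 CPM in moderate and 23.4 ± 5.01 CPM in mild libraries (log2 fold change -0.42 ± 0.16).

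Immediate early genes, which neurons switch on with activity, showed no common direction, with 10 of 26 positive and a median of -0.11 (-0.01 without mild replicate 3 and -0.03 without moderate replicate 1), and 1 member, EGR4, did not overlap between the groups. EGR4, an early growth response factor (chromosome 11), stood at 1.54, 2.48 and 4.32 CPM in moderate libraries and 0.133, 0.311 and 1.32 CPM in mild libraries. Every moderate library lay above every mild one, at a level of few counts. The log2 fold change was 2.40 ± 0.59 (adjusted p = 0.121), with adjusted p = 0.00896 by DESeq2 and 0.0481 without moderate replicate 6. Room air libraries ran from 0.136 to 2.66 CPM and overlapped both groups. EGR1 averaged 8.89 ± 4.09 CPM in moderate and 5.03 ± 1.25 CPM in mild libraries (log2 fold change 0.83 ± 0.32). KLF6 and JUN, of the same list, lay on the lower side, with log2 fold changes of -0.3 and -0.39. At an unadjusted p under 0.05, 2 members were higher and 2 lower, 15.4% of the list beside 15.5% of all genes. Glucocorticoid-responsive genes had a median of 0.20 over 17, and of 0.03 to 0.22 with 1 library left out, lowest without moderate replicate 3. FKBP5, which dampens the glucocorticoid receptor, averaged 31.9 ± 35.5 and 14.7 ± 9 CPM, a log2 fold change of 1.11 that was 0.25 without moderate replicate 3, which held 103 CPM. KLF9 averaged 9.54 ± 4.53 and 5.84 ± 1.89 CPM, while CRISPLD2, a secreted protein, lay on the lower side at 4.88 ± 2.92 and 8.85 ± 1.55 CPM in moderate and mild libraries.

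The hypoxia and glycolysis list had a median of 0.13 over 23 members, and of 0.05 to 0.19 with 1 library left out, lowest without moderate replicate 3, with 6 higher at an unadjusted p under 0.05. HK1, the brain hexokinase that starts glycolysis (chromosome 28), stood at 337, 477 and 553 CPM in moderate libraries and 243, 324 and 371 CPM in mild libraries (log2 fold change 0.53 ± 0.13, adjusted p = 0.121). PFKM, the muscle form of the rate-limiting phosphofructokinase, averaged 586 ± 86.7 CPM in moderate and 417 ± 81.0 CPM in mild libraries, and PFKP, the platelet form, 328 ± 90.3 and 235 ± 37.7 CPM. PKM, pyruvate kinase, averaged 3230 ± 551 and 2510 ± 357 CPM. Without moderate replicate 6 the adjusted p was 0.0307 for HK1, 0.0421 for PFKM and 0.0311 for PFKP. Nuclear genes of oxidative phosphorylation had a median of 0.02 over 16, with 3 higher at an unadjusted p under 0.05 (1 without mild replicate 3). That is 18.8% of members, beside 15.5% of all genes in either direction and 7.61% on the higher side. Among the 3 were NDUFV1 of complex I (log2 fold change 0.29) and ATP5F1B of the ATP synthase (0.24). Ribosomal protein genes were all negative, 16 of 16, with a median of -0.28 and 0 at an unadjusted p under 0.05. RPS6 and RPS3, both of the small subunit, had log2 fold changes of -0.32 and -0.28, which were -0.18 and -0.17 without mild replicate 1. The list median was -0.12 without that library. The 13 mitochondrially encoded genes, an added list, had a median of -0.29, with 12 negative, and of -0.09 without mild replicate 1 and -0.10 without mild replicate 2.

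Myelin and oligodendrocyte markers had a median of -0.34, with 11 of 12 negative and 4 at an unadjusted p under 0.05. The median was -0.22 without mild replicate 2, and 8 reached that p without moderate replicate 6. MOG, a surface protein of myelin, stood at 564, 807 and 1090 CPM in moderate libraries and 818, 1050 and 1120 CPM in mild libraries (log2 fold change -0.34 ± 0.13). ERMN, a cytoskeletal protein of oligodendrocytes, averaged 681 ± 152 and 903 ± 149 CPM, with adjusted p = 0.0340 without moderate replicate 6. ASPA, which releases acetate for myelin lipids, averaged 32.1 ± 5.72 and 43.5 ± 9.14 CPM, and GJB1, a gap junction protein of oligodendrocytes, 47.1 ± 13.5 and 65.8 ± 14.9 CPM. Astrocyte markers were mixed, with 9 of 13 positive and a median of 0.30 that was 0.17 without mild replicate 3 and 0.19 without moderate replicate 3, ALDOC, a brain aldolase, at 5060 ± 788 and 3880 ± 851 CPM, and S100B and the transcription factor SOX9 on the lower side with log2 fold changes of -0.42 and -0.58. Endothelial markers had a median of -0.23, with 16 of 19 negative, among them KDR, the main VEGF receptor (-0.29), the arterial factor SOX17 (-0.77) and THSD1 (-0.44). These 3 were the members at an unadjusted p under 0.05, 15.8% of the list beside 15.5% of all genes in either direction. They are named for their p and do not stand for the list. The endothelial median was -0.14 without mild replicate 3 and -0.12 without mild replicate 2, and SOX17 was -0.47 without mild replicate 2. Pericyte and smooth muscle markers were mixed, with 5 of 14 positive and a median of -0.14 (-0.08 without mild replicate 3). MYH11, a smooth muscle myosin, had a log2 fold change of -0.38, while that of CNN1, in the same list, was 0.92. Fibroblast and collagen genes had a median of -0.25, with 14 of 17 negative and 11.8% at an unadjusted p under 0.05. All genes had 15.5% at that p in either direction and 7.84% on the lower side, so the share is not taken as a result about the list. Named for its p, COL6A3, a collagen chain of connective tissue, had -0.46 (adjusted p = 0.29). It stood at 38.4 ± 10.2 CPM in moderate and 52.8 ± 4.38 CPM in mild libraries. Cell division genes had a median of -0.55 with 8 of 11 negative, including CCNA2, a cyclin of S phase (-0.68). That median was -0.35 without mild replicate 3, and 1 member in place of 4 then had an unadjusted p under 0.05.

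Single genes of other lists were NSDHL, an enzyme of cholesterol synthesis, and CRY2, a repressor of the circadian clock, whose moderate libraries all lay above the mild ones. NSDHL ranged over 123 to 163 CPM in moderate and 107 to 119 CPM in mild libraries (log2 fold change 0.24 ± 0.09), and CRY2 over 134 to 167 and 117 to 129 CPM (0.28 ± 0.08). The cholesterol list had a median of 0.12 over 22 and the circadian list of 0.03 over 19. In the oxidative stress list, with a median of 0.06, the peroxide-degrading enzyme CAT and the thioredoxin reductase TXNRD1 differed in opposite directions, with log2 fold changes of -0.44 and 0.32.

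**Figure D4:**
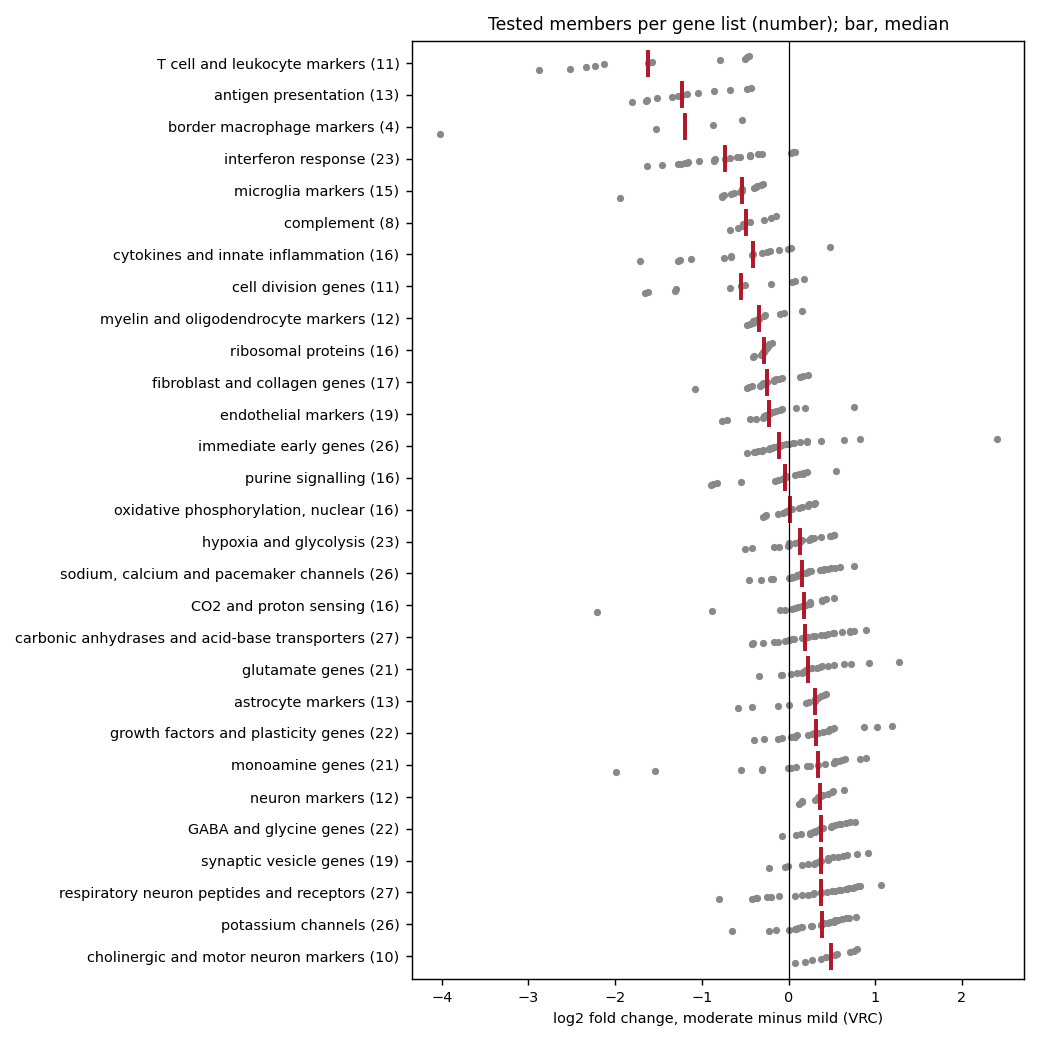
Log2 fold change, moderate minus mild, of each tested member (grey points) of 29 gene lists, with the list median as a bar and the number of members in brackets. Immune lists lie left of 0, down to a median of -1.62 for T cell and leukocyte markers, and neuronal lists lie right of it, at medians of 0.15 to 0.49.

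Summed levels of markers of cell types and of neighbouring tissue overlapped between the groups. The summed level of neuron markers was 9040 to 22500 CPM in moderate libraries and 8670 to 18800 CPM in mild libraries, and that of myelin markers 24100 to 54700 and 35200 to 55400 CPM. Markers of cerebellum and cortex, of which 4 of 11 were tested and all 4 were positive, summed to 37.0 to 177 CPM in moderate libraries and 18.7 to 101 CPM in mild libraries. NEUROD1, a factor of granule neurons, stood at 1.20 to 5.75 CPM in moderate libraries and 0.467 to 2.43 CPM in mild libraries, and SLC17A7 at 31.3 to 164 and 16.2 to 90.8 CPM. The part of differing tissue composition in the neuronal results was not tested.

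No gene passed a test of whether VRC differed from the other regions. The test of the VRC difference against the mean difference of mPFC, NTS and RTN, with edgeR over all 72 libraries and 16372 genes, called 0 genes (0%), with 1069 at an unadjusted p under 0.05 (6.53%) and a lowest adjusted p of 0.729. On their own, mPFC, NTS and RTN had 0 calls each and 719 (4.67%), 615 (3.99%) and 1623 (10.6%) genes at an unadjusted p under 0.05. The genes with symbols and smallest p in the test of the difference were led on the higher side by CAMK1G, a calmodulin-dependent kinase of neurons. CAMK1G had a log2 fold change of 0.89 in VRC, against -0.23 in RTN, 0.17 in NTS and 0.29 in mPFC (adjusted p = 0.729 for the difference). DKK3 had 0.72 in VRC, against 0.13, 0.23 and 0.05 in RTN, NTS and mPFC, and DZANK1 0.62, against 0.16, 0.23 and -0.01. NEUROD1 had 1.26 in VRC, against -0.51, 0.10 and 0.11. On the lower side stood KDELR3, with -0.90 in VRC and -0.13, -0.05 and 0.27 elsewhere, REL, an NF-kappa B subunit of lymphocytes, with -1.51 and 0.33, 0.12 and 0.43, and CTSL, a lysosomal protease, with -2.80 and -0.72, -0.53 and 0.32. The CTSL value in VRC rested on mild replicate 3, at 50.6 CPM against 1.27 to 3.53 CPM in the other mild libraries, and was -0.67 without it. By p, MYO1A and SLAMF7 on the lower side and LMAN1L on the higher side also ranked among the first 5 per direction. Their log2 differences between VRC and the other regions were -8.48, -3.64 and 3.71. They did not pass the low-count filter of the VRC fit and are not described further. None of these differences passed.

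By list, immune markers stood lower in moderate than in mild libraries in all 3 brainstem regions and not in cortex. The median of antigen presentation genes was -1.23 in VRC, -0.80 in RTN, -0.92 in NTS and 0.37 in mPFC. T cell and leukocyte markers had medians of -1.62, -0.88, -1.19 and 0.25, and microglia markers -0.54, -0.35, -0.28 and 0.23, in the same order of regions. Neuron markers had a median of 0.36 in VRC, against -0.04 in RTN, 0.09 in NTS and -0.19 in mPFC, and synaptic vesicle genes 0.38, against 0.07, 0.05 and -0.13. Whether these list medians differ between regions was not tested, and same-numbered libraries of different regions may come from 1 animal. Mild replicate 3 had the highest antigen presentation score of the mild libraries in VRC (5.69 when scaled over the whole series), RTN (4.72) and mPFC (4.76), and mild replicate 5 in NTS (5.05).

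**Figure D5:**
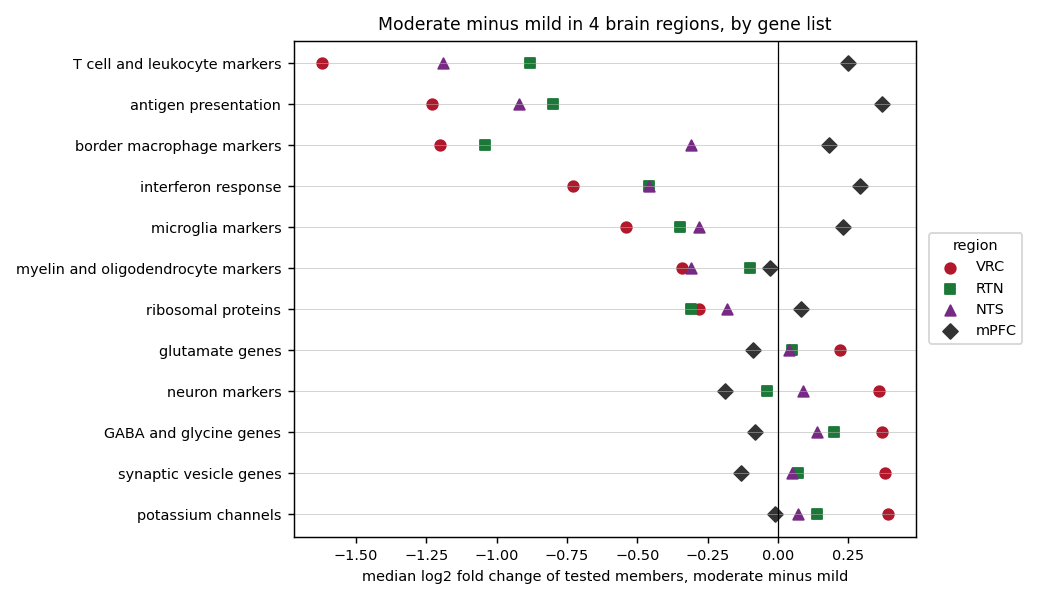
Median log2 fold change, moderate minus mild, of the tested members of 12 gene lists in VRC, RTN, NTS and mPFC. The immune lists lie left of 0 in the 3 brainstem regions and right of it in mPFC, and the neuron marker median is 0.36 in VRC against -0.19 to 0.09 elsewhere.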

How the data were processed

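RNA-seq of 72 goat brain libraries was analysed from a deposited table of 21343 genes. The authors deposited raw counts per gene, RPKM values and a gene length column, of the unit other, in bases. The deposited RPKM values imply library sizes 1.0047 to 1.007 times the summed counts. Per the submitters' processing notes, FastQC, Trimmomatic, STAR, featureCounts and edgeR were used. Their versions, the genome build and the strand setting: not given in the sources used here. The table gives 6643 genes no symbol, and only chromosomes are printed as positions.

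One edgeR model (version 4.0.16 under R 4.3.3) held the 18 VRC libraries, with 1 coefficient per group. Genes were kept by filterByExpr (minimum count 10), scaled by TMM and tested by quasi-likelihood. P-values were adjusted by Benjamini-Hochberg over 15302 genes, with a threshold of 0.05. CPM are counts relative to the TMM-scaled library size, a list score is the mean log2 CPM of its tested members with a prior count of 1, and errors are SD for CPM and SE for log2 fold changes. The region test used all 72 libraries as independent. Alternatives were DESeq2 1.42.0, limma 3.58.1 with quality weights, RLE factors, no filter, the replicate block, the 2 groups alone, the newer quasi-likelihood form, and leaving out each library. The fit was checked on simulated counts.

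The 42 gene lists, the tests and the genes were chosen with earlier results of these data known, and 3 lists were added after values were seen. Named genes were the 10 of smallest p per direction with a symbol and a mean of at least 1 CPM, and up to 4 members of each list by p. Added to these were the 5 genes per direction of the region test, where tested in the VRC fit, and the marker genes of the label check. Not every gene picked this way is reported here, and SRSF7, named after its values were seen, falls outside the rule. With 6 libraries a group, depth limits precision most for genes of a few CPM. No sequence is printed.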

Additional observations from a re-analysis of the deposited data

Results flagged for a closer look

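Gene and list values were checked in each group of 6 for a single library far from the other 5, a check that chance alone meets in about 1 of 20 groups. Of 242 gene groups and 84 list groups, 17 and 4 met it. Moderate replicate 6 was the low library in 10 of them. It held 158 CPM of CAMK2B (270 to 357 in the other moderate libraries), 736 CPM of DZANK1 (1100 to 1300), 687 CPM of ENO2 (1090 to 1340), 15.4 CPM of GRM4 (29.3 to 42.3) and 5.67 CPM of HTR5A (11.5 to 17.3). It also held 325 CPM of PYGB (485 to 549), 1210 CPM of SLC26A11 (1790 to 2220), 89.9 CPM of SLC4A3 (155 to 201), 112 CPM of SYN1 (208 to 261) and 23.7 CPM of UNC5A (38.2 to 46.7).

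Mild replicate 3 was far above the other mild libraries for CD68, at 103 CPM (7.25 to 15.4), and CTSL, at 50.6 CPM (1.27 to 3.53). It was far below them in the scores of astrocyte markers (7.19, against 7.87 to 8.05), oligodendrocyte precursor markers (3.74, against 4.34 to 4.63) and ependymal and cilia markers (1.78, against 2.35 to 2.64). Mild replicate 4 was low in the score of respiratory neuron peptides and receptors, at 2.39 (3.05 to 3.42). Mild replicate 6 was low for MOG, at 818 CPM (1010 to 1120), and for SRSF7, at 133 CPM (150 to 159). Single values elsewhere were 309 CPM of RPS3 in mild replicate 1 (196 to 227), 18.7 CPM of UNC5A in mild replicate 2 (24.2 to 27.8) and 10.1 CPM of THSD1 in moderate replicate 3 (19.2 to 27.8).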

How the results depend on the processing

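Against 0 genes called by edgeR, limma with quality weights called 34 (20 higher in moderate, 14 lower) and DESeq2 280 (131 higher, 149 lower). RLE factors, no filter, the replicate block, the 12 libraries alone and the newer quasi-likelihood form each gave 0. Leaving out each library in turn gave 0 to 247 calls, of which 0 to 168 were higher and 0 to 79 lower, the highest without moderate replicate 6. The cause was not tested. Genes at an unadjusted p under 0.05 numbered 2365 with all libraries and 1724 to 3055 with 1 library left out. With the replicate block there were 2785. Same-numbered moderate and mild libraries were not taken as paired: their deviations correlated at -0.30 to 0.38, 2 of 6 over 0.1, and the nearest library of the other condition had the same number for 4 of 12. The region test gave 1069 genes at an unadjusted p under 0.05, and 575 against NTS and RTN alone. Of the 121 genes examined one by one, none turned direction under any alternative, and 58 passed under at least 1. Most of them were picked for a small p in this same comparison. That choice favours a kept direction in refits of nearly the same libraries, so it is no separate support. Of the 45 lists, 7 had a median of the other sign under at least 1 alternative, all with a main median of at most 0.11 in size: oligodendrocyte precursor, ependymal and cilia, purine, oxidative phosphorylation, circadian, heat shock and HNRNP genes. Leaving out 1 library moved 32 of the 45 medians by over 1.5 times, among them choroid plexus, at 0.08 without moderate replicate 5, against 0.42. Over the 121 genes examined one by one, the highest adjusted p of a gene with 1 library left out was 0.219 to 0.838. Genes of a few CPM rest on few counts. Without strand information, antisense partners cannot be told apart, nor can reads shared between near-identical genes.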
